A study of Arabidopsis thaliana with 8 samples.

Results

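The genes described here are those of the proteasome, taken as the probe sets whose deposited annotation holds the word proteasome, in upper or lower case. The word was found for 44 of 22746 probe sets. Of these, 21 belong to the core particle (11 to the alpha ring and 10 to the beta ring). A further 13 were assigned to the regulatory particle (3 to ATPases and 10 to other subunits). Among these 13, AT5G57950 was placed by its annotation alone, since it is not among the subunit genes listed by gene identifier. Whether it is a subunit is uncertain. The last 10 carry the word without belonging to either particle. The 44 probe sets stand for 47 genes, since 3 of them (PAA1/PAA2, PBE1/PBE2 and RPT1a/RPT1b) detect a pair of near-identical copies together. Of 54 subunit genes known in Arabidopsis and listed by gene identifier, 50 have a probe set on the array, and PAC2, RPN9b, RPN1b and RPN12b were not analysed here.

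Whole wild-type Col-0 seedlings were grown on agar with 1% sucrose under 16 h light and 8 h dark. Primed seedlings were heated at an age of 5 days. They were kept at 37 °C for 1.5 h, allowed to recover for 1.5 h at 22 °C, and then exposed to 44 °C for 45 min. The time that follows is the memory phase, from which RNA was taken at 4, 8, 24 or 48 h. Unprimed seedlings of the same age and genotype were not heated and were harvested at the same 4 times. Heat was applied in darkness, and the sources used here do not say whether the unprimed seedlings were darkened as well. Each of the 8 conditions is 1 Affymetrix ATH1 array hybridised with RNA from a pool of seedlings. The spread between replicate pools is therefore unknown, no difference at a single time can be tested, and the precision of every value below is limited by how few arrays there are.

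The 26S proteasome degrades proteins that carry chains of ubiquitin. Its core particle is a barrel of stacked rings, in which the alpha rings form the gate and the beta rings hold the peptidase sites, and the regulatory particle at its ends recognises ubiquitin, removes it and unfolds the substrate with a ring of ATPases. Many of its subunits are encoded in Arabidopsis by a pair of duplicated genes, and the subunit genes as a group are known to be transcribed more when proteasome capacity is short, through NAC transcription factors of plants.

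All values are log2 array values, and a difference is the log2 value of the primed array minus that of the unprimed array of the same time. A difference of 1 corresponds to 2-fold, which is the limit used for counting. The scale begins at 2.0, and 26.26 to 26.86% of the probe sets of each array lay within 0.05 of this floor, where signal and background look alike. The core and regulatory members lay between 6.56 and 13.91 in all 8 arrays. The median difference over all probe sets was 0.00 at each time. Priming was visible in the arrays: HSP21, a plastid small heat shock protein, differed by 12, 12.62, 11.58 and 8.85 at 4, 8, 24 and 48 h. Markers of roots were lower in primed seedlings early, with 4 of 4 at least 2-fold lower at 4 h (differences of -1.68 to -1.14) and 3 of 4 at 8 h (-1.52 to 0.39), their median log2 value being 7.32 in the primed and 7.67 in the unprimed 8 h array. Of the seed markers, 4 of 4 were at least 2-fold lower at 4 and 24 h and 1 of 4 at 8 and 48 h. The 3 probe sets of green tissue stayed within 2-fold, with differences of -0.28 to 0.54 at 8 h. None of the 4 root markers was at the floor in an array, whereas the seed markers SESA1 and CRC were at the floor in all 4 primed arrays. In whole seedlings, fewer cells of a type and less RNA per cell cannot be told apart, and the part of these markers in the results below was not tested.

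Most of the 44 members were more abundant in primed than in unprimed seedlings at 8 h, and close to the unprimed level at the other times. Regulatory subunits taken by gene identifier, some of them not members, already had a median difference of 0.46 at 4 h. At 8 h, 19 of the 44 members were at least 2-fold higher in primed seedlings, against 7.33% of all probe sets, and 0 were at least 2-fold lower, against 7.91%. At 4 h, 2 members were at least 2-fold higher (9.36% of all probe sets) and 0 lower (9.93%). At 24 h, 1 member was higher (2.76%) and 0 lower (1.67%), and at 48 h 0 were higher (0.747%) and 0 lower (0.932%). The median difference of the members was 0.065, 0.905, -0.135 and -0.03 at 4, 8, 24 and 48 h. The difference was largest at 8 h for 36 of the 44 members and for 20.6% of all probe sets.

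**Figure D1:**
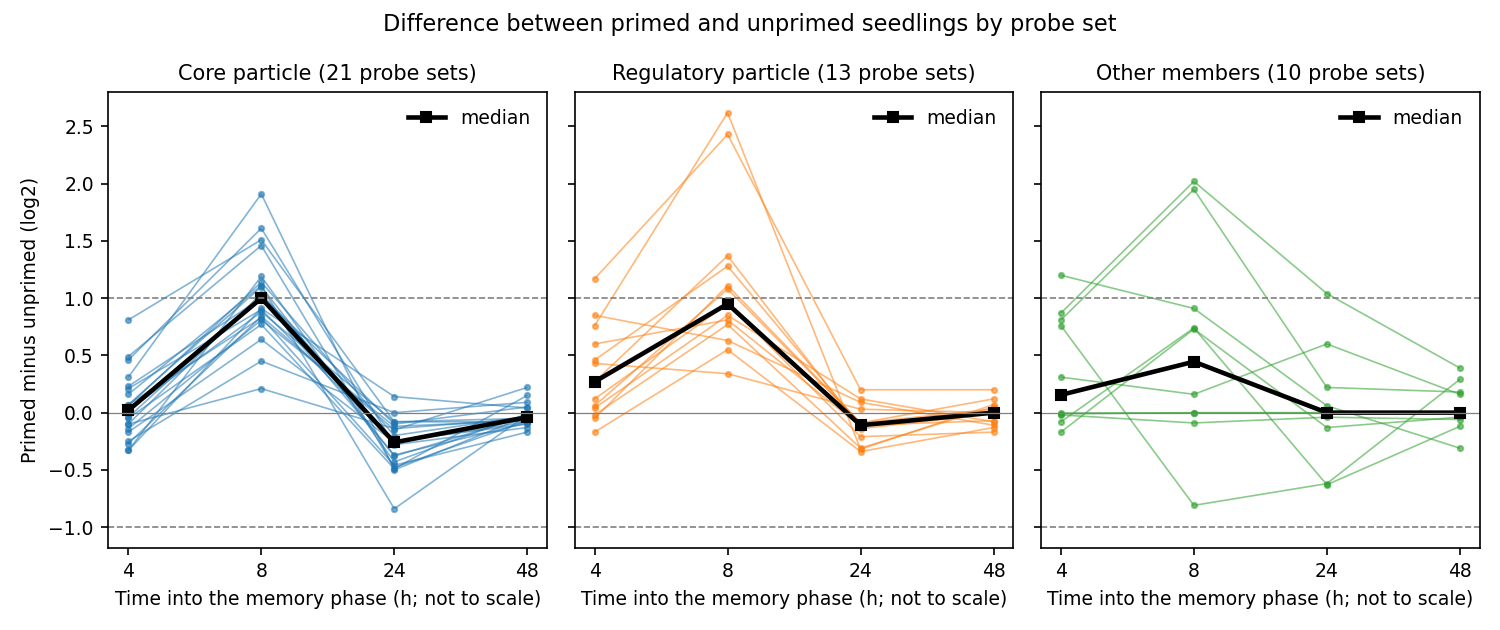
Difference between primed and unprimed seedlings (log2, vertical axis) at 4, 8, 24 and 48 h (horizontal axis, not to scale) for the 21 core, 13 regulatory and 10 other members, with 1 thin line per probe set, the median of each panel in black and dashed lines at 2-fold. The core and regulatory medians reach 1.00 and 0.95 at 8 h and lie at -0.26 and -0.11 at 24 h.

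The values that stood apart at 8 h were those of the primed array. The primed 8 h array held the highest of the 8 values for 36 of the 44 members, among them 21 of 21 core and 11 of 13 regulatory members, whereas this held for 11.3% of all probe sets. From 4 to 8 h, primed seedlings differed by a median of 0.86 for the core (range 0.26 to 1.54) and 0.74 for the regulatory particle (-0.17 to 1.72). The same step in unprimed seedlings gave medians of -0.05 (-0.34 to 0.20) and -0.11 (-0.72 to 0.38). The 4 unprimed arrays of a member spanned a median of 0.25. For 11 of the 44 members the primed 8 h value exceeded the highest unprimed value by at least 1. The same held for 820 of all 22746 probe sets. Between the unprimed arrays of 24 and 48 h, which differ by 1 labelled day, 0 of the 44 members differed at least 2-fold, compared with 2.72% of all probe sets in either direction. With these 4 unprimed arrays as the measure of spread, the differences of the members at 48 h, which lay between -0.31 and 0.39, were of the size of the changes between unprimed seedlings of different times.

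The alpha ring, which closes the core particle and opens for the substrate, was higher in primed seedlings at 8 h for all 11 probe sets, by 0.64 to 1.61. Over all 22746 probe sets, 8749 were higher and 8179 lower at 8 h. Its median difference was -0.10, 0.91, -0.26 and -0.02 at the 4 times. At 8 h, 5 of the 11 were at least 2-fold higher, against 7.33% of all probe sets. PAF1 (AT5G42790) had the largest difference of the ring. Its log2 values in primed seedlings were 11.45, 12.53, 10.76 and 10.68 at 4, 8, 24 and 48 h, and in unprimed seedlings 10.99, 10.92, 11.04 and 10.81. The primed arrays of 4 and 8 h were thus above the whole unprimed range, and the primed arrays of 24 and 48 h were below it. The difference of 1.61 at 8 h amounts to 3.05-fold.

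The other alpha subunits past 2-fold at 8 h were PAE2, PAD1, PAE1 and PAB1. For PAE2 (AT3G14290) the primed values were 10.99, 12.39, 11.07 and 11.27 and the unprimed ones 11.32, 11.20, 11.50 and 11.28, so that the primed array was the lower one at 4 h (-0.33) and the higher one at 8 h (1.19). Its copy PAE1 (AT1G53850) went from -0.10 at 4 h to 1.04 at 8 h, and PAB1 (AT1G16470) from -0.04 to 1.02. PAD1 (AT3G51260) had primed values of 11.04, 11.82, 10.05 and 10.41 and unprimed values of 10.88, 10.71, 10.89 and 10.43. Its difference was 1.11 at 8 h and -0.84 at 24 h, the lowest value of any member at 24 h, with the primed 24 h array the lowest of the 8 and the unprimed one near its level at 4 h. Its copy PAD2 (AT5G66140) gave 0.91 and 0.14 at these times. The latter was the only positive difference of the core particle at 24 h, and it turned to -0.06 against the mean of the 4 unprimed arrays.

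Smaller differences were measured for the remaining alpha subunits. PAA1/PAA2, a probe set of 2 genes, gave 0.64 at 8 h, PAC1 (AT3G22110) 0.77, PAF2 0.81, PAG1 (AT2G27020) 0.83 and PAB2 0.84. PAC1 and PAG1 also stood at -0.49 and -0.46 at 24 h. At 4 h, 8 of the 11 alpha probe sets were below 0, down to -0.33 for PAD2 and PAE2, against 9075 of all 22746 probe sets. The number was 5 of 11 once the arrays were centred on the median level of the reference genes.

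The beta ring, which contains the peptidase sites, gave median differences of 0.14, 1.05, -0.23 and -0.045. At 8 h, 6 of its 10 probe sets were at least 2-fold higher, against 7.33% of all probe sets. PBB2 (AT5G40580) encodes the subunit with trypsin-like activity and had the largest difference of the core particle. Its primed values were 10.41, 11.95, 9.57 and 9.87 at 4, 8, 24 and 48 h, against 10.10, 10.04, 10.07 and 9.90 in unprimed seedlings. Unprimed seedlings hardly varied, the primed 8 h array stood 1.91 above its control (3.76-fold), and the primed 24 h array lay 0.50 below its own. PBB1 (AT3G27430), the other gene for the same subunit, had primed values of 13.30, 13.56, 13.24 and 13.19 and unprimed values of 13.40, 13.35, 13.38 and 13.24. Its difference of 0.21 at 8 h was the smallest in the core particle, although its primed 8 h array was still the highest of the 8.

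PBC2 and PBD2, structural beta subunits, were the core members with the largest differences at 4 h. PBC2 (AT1G77440) was measured at 11.23, 11.94, 10.49 and 10.52 in primed and at 10.42, 10.43, 10.57 and 10.57 in unprimed seedlings, with differences of 0.81 at 4 h and 1.51 at 8 h. PBD2 (AT4G14800) was measured at 10.38, 11.01, 9.37 and 9.62 in primed and at 9.89, 9.55, 9.85 and 9.69 in unprimed seedlings, which gives 0.49 and 1.46. For both genes the primed arrays of 4 and 8 h lay above all 4 unprimed arrays. Their copies PBC1 (AT1G21720) and PBD1 (AT3G22630) gave 0.21 and 0.02 at 4 h and 0.90 and 0.88 at 8 h.

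The beta subunits with the other peptidase activities were close to 2-fold at 8 h. PBA1 (AT4G31300), which carries the caspase-like site, had primed values of 11.99, 12.62, 11.32 and 11.43 and unprimed values of 11.76, 11.62, 11.69 and 11.52, hence a difference of 1.00 at 8 h and -0.37 at 24 h. PBE1/PBE2, a probe set for both genes of the chymotrypsin-like subunit, gave 1.1 at 8 h and -0.38 at 24 h. Of the structural subunits PBG1 and PBF1, PBG1 (AT1G56450) gave 1.14 at 8 h, and PBF1 (AT3G60820) gave -0.25 at 4 h and 0.45 at 8 h.

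At 24 h, most of the core particle was slightly lower in primed seedlings. Of the 21 core probe sets, 19 had a negative difference and 1 a positive one, and the median was -0.26, with a range of -0.84 to 0.14 and 0 probe sets past 2-fold. Over all probe sets, 8688 of 22746 were below 0 and 7836 above it at that time. The unprimed 24 h array is the one in which the seed markers were highest, with a median log2 value of 6.97 against 2.06 in its primed counterpart. Against the mean of the other 3 unprimed arrays, 20 of the 21 core probe sets were below 0. At 48 h the core differences lay between -0.17 and 0.22.

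**Figure D2:**
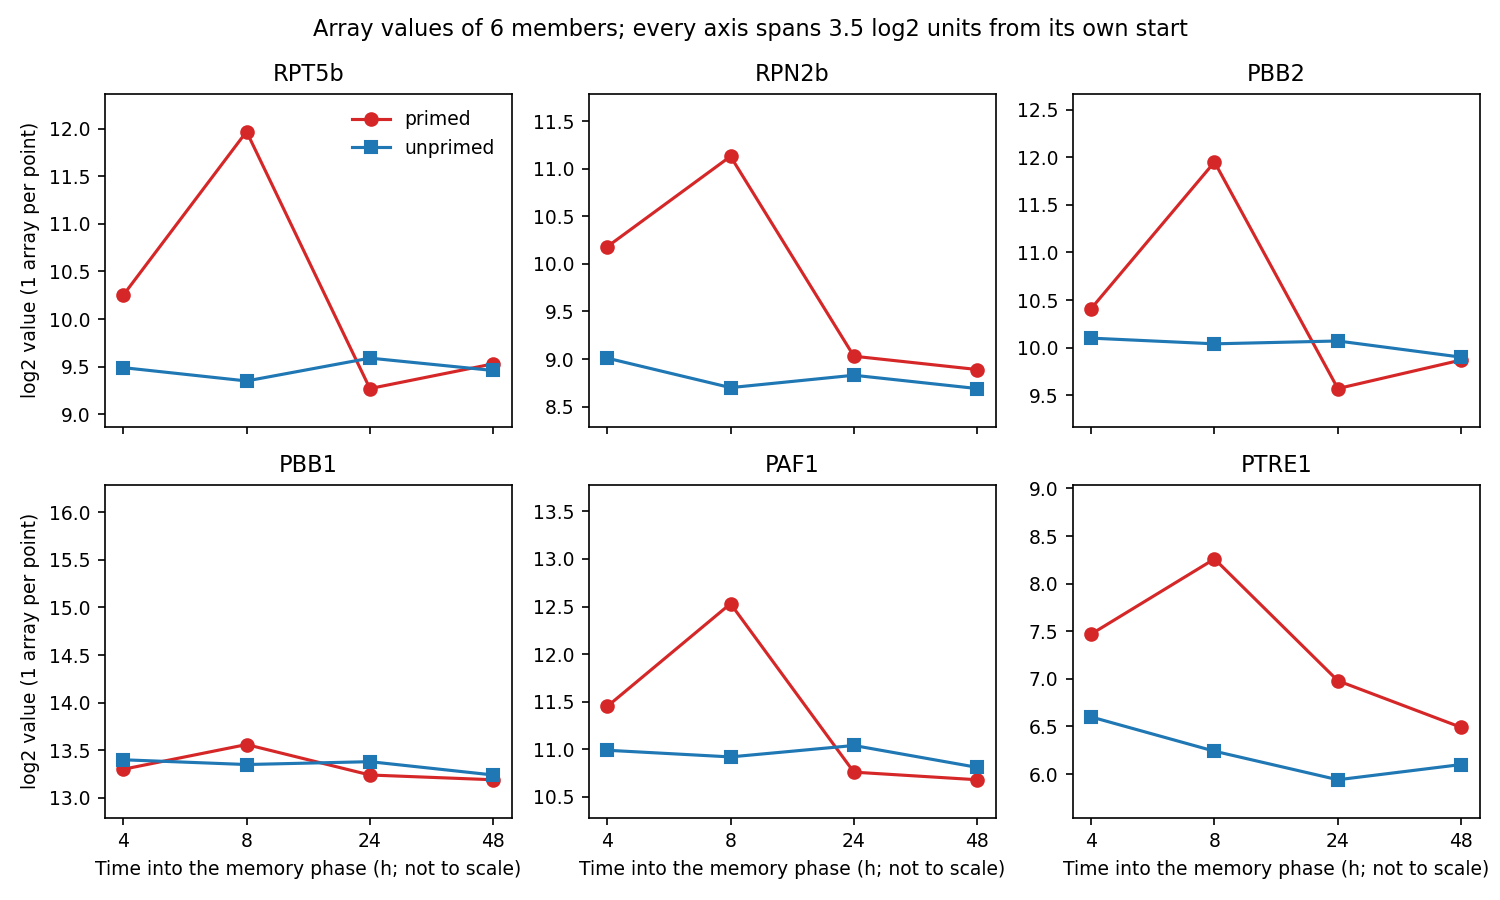
Log2 array values (vertical axis, each panel spanning 3.5 log2 units from its own start) of 6 members at 4, 8, 24 and 48 h (horizontal axis, not to scale), with primed arrays as red circles, unprimed arrays as blue squares and 1 array per point. In RPT5b, RPN2b, PBB2 and PAF1 the primed 8 h array stands 2.62, 2.43, 1.91 and 1.61 above its control, in PBB1 0.21, and PTRE1 is above its control at all 4 times.

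The regulatory particle showed the 8 h peak as well, with a wider range, and some of its subunits were already higher at 4 h. The median difference of its 13 members was 0.27, 0.95, -0.11 and 0.00 at the 4 times. At 8 h, 6 of 13 passed the 2-fold limit upwards, against 7.33% of all probe sets. At 4 h, 1 of 13 did, which is near the 9.36% of all probe sets. At 8 h all 13 were above 0, from 0.34 to 2.62, against 8749 of all 22746 probe sets. At 24 and 48 h all 13 lay between -0.34 and 0.20.

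Among the ATPases, which unfold the substrate and open the gate of the core, RPT5b (AT1G09100) had the largest difference of all 44 members. Its log2 values were 10.25, 11.97, 9.27 and 9.53 in primed and 9.49, 9.35, 9.59 and 9.46 in unprimed seedlings at 4, 8, 24 and 48 h. Both early primed arrays were above the unprimed range of 0.24, and the one at 24 h was just below it. The differences were 0.76, 2.62, -0.32 and 0.07, so that the transcript was 6.15-fold higher at 8 h. RPT1a/RPT1b, a probe set of 2 genes, had primed values of 11.78, 12.61, 11.48 and 11.48 and unprimed values of 11.72, 11.53, 11.57 and 11.45, and stood out at 8 h alone (1.08). RPT4b (AT1G45000) gave 0.12 at 4 h, 0.95 at 8 h and -0.21 at 24 h.

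Among the subunits without ATPase activity, RPN2b (AT1G04810), a scaffold of the base to which a ubiquitin receptor attaches, had the largest difference. Primed seedlings gave 10.18, 11.13, 9.03 and 8.89 and unprimed seedlings 9.01, 8.70, 8.83 and 8.69. It was the only regulatory member past 2-fold at 4 h (1.17), was 5.39-fold higher at 8 h (2.43), and its primed array remained above the unprimed one by 0.20 at 24 h and 0.20 at 48 h. These late differences were smaller than the 0.32 spanned by its unprimed arrays. RPN2a (AT2G32730), the other copy, gave -0.17, 0.55, -0.34 and -0.13.

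RPN11 (AT5G23540), the deubiquitylase of the lid that cuts the ubiquitin chain from the substrate, had primed values of 12.92, 13.91, 12.51 and 12.49 and unprimed values of 12.65, 12.54, 12.65 and 12.50. Its primed 8 h array was the highest by far, with a difference of 1.37 (2.58-fold), after 0.27 at 4 h. RPN1a (AT2G20580), the second large scaffold of the base, was measured at 9.31, 10.02, 8.87 and 8.91 in primed and at 8.85, 8.74, 8.98 and 8.98 in unprimed seedlings, and gave 0.46 at 4 h and 1.28 at 8 h. The gene AT5G57950, annotated as a putative 26S regulatory subunit, gave primed values of 7.23, 7.67, 6.84 and 6.99 and unprimed values of 7.28, 6.56, 6.93 and 6.87. Its difference of 1.11 at 8 h rests in part on an unprimed 8 h array that was the lowest of its 8 values. Against the mean of the 4 unprimed arrays it was 0.76, below 2-fold.

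A pair of lid subunits had their largest difference at 4 h and not at 8 h. RPN9a (AT5G45620) was measured at 10.16, 10.10, 9.35 and 9.07 in primed and at 9.31, 9.47, 9.26 and 9.18 in unprimed seedlings, with differences of 0.85 at 4 h and 0.63 at 8 h. RPN3b (AT1G75990) was measured at 10.07, 9.90, 9.51 and 9.52 against 9.64, 9.56, 9.48 and 9.52, with differences of 0.43 and 0.34. In both, the primed arrays of 4 and 8 h were above all unprimed arrays, and neither gene reached 2-fold. The remaining lid subunits RPN5b, RPN7 and RPN12a gave 0.60, 0.04 and -0.02 at 4 h and 0.81, 0.85 and 0.77 at 8 h.

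The annotation of 13 further probe sets of the regulatory particle does not hold the word proteasome, so they are not among the 44, and they were found by gene identifier. At 4 and 8 h all 13 were above 0, against 8046 and 8749 of all 22746 probe sets. At 8 h, 6 of 13 passed the 2-fold limit upwards, against 7.33% of all probe sets. The median difference of the 13 was 0.55, 0.92, -0.08 and -0.02. RPN8b (AT3G11270), a lid subunit that pairs with RPN11, was measured at 8.47, 10.63, 8.33 and 8.53 in primed and at 8.03, 8.23, 8.41 and 8.08 in unprimed seedlings, and was higher by 2.40 at 8 h. The ATPase genes RPT2a, RPT3 and RPT6a/RPT6b gave 0.82, 0.88 and 0.61 at 4 h and 1.66, 1.37 and 1.57 at 8 h. RPN10, a ubiquitin receptor, gave 0.68, 1.06 and 0.81 at 4, 8 and 24 h, the last against an unprimed 24 h value of 6.36 that was the lowest of its 8 arrays. With the particle taken by gene identifier, 11 of 25 probe sets passed 2-fold upwards at 8 h, against 7.33% of all probe sets. The medians of the 25 were 0.46, 0.92, -0.11 and -0.01.

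At 4 h, the regulatory particle was above the core particle in its median difference. By annotation, the medians were 0.27 for the regulatory and 0.02 for the core particle, and by gene identifier the regulatory median was 0.46. At that time 11 of the 21 core probe sets were above 0 and 10 below, whereas 23 of the 25 regulatory probe sets were above 0. Over all 22746 probe sets, 8046 were above 0 and 9075 below at 4 h. With the arrays centred on reference genes, 15 of the 21 and 24 of the 25 were above 0, and after quantile normalization the core median was -0.04. Centring used the median log2 level of the reference genes, 11.87 in the primed and 11.98 in the unprimed 4 h array. It therefore raised all differences, although the median of the differences of these genes was itself above 0 (0.065). At 8 h the medians of 1.00 for the core and 0.95 for the regulatory particle differed by 0.05. The standard deviation of the median log2 value over the 4 unprimed arrays was 0.084 for the core and 0.051 for the regulatory particle. These values also hold changes between times and are not the error of that gap. Whether the particles differ at 4 or 8 h was not tested, because probe sets of 1 pair of arrays are not replicates of a condition.

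**Figure D3:**
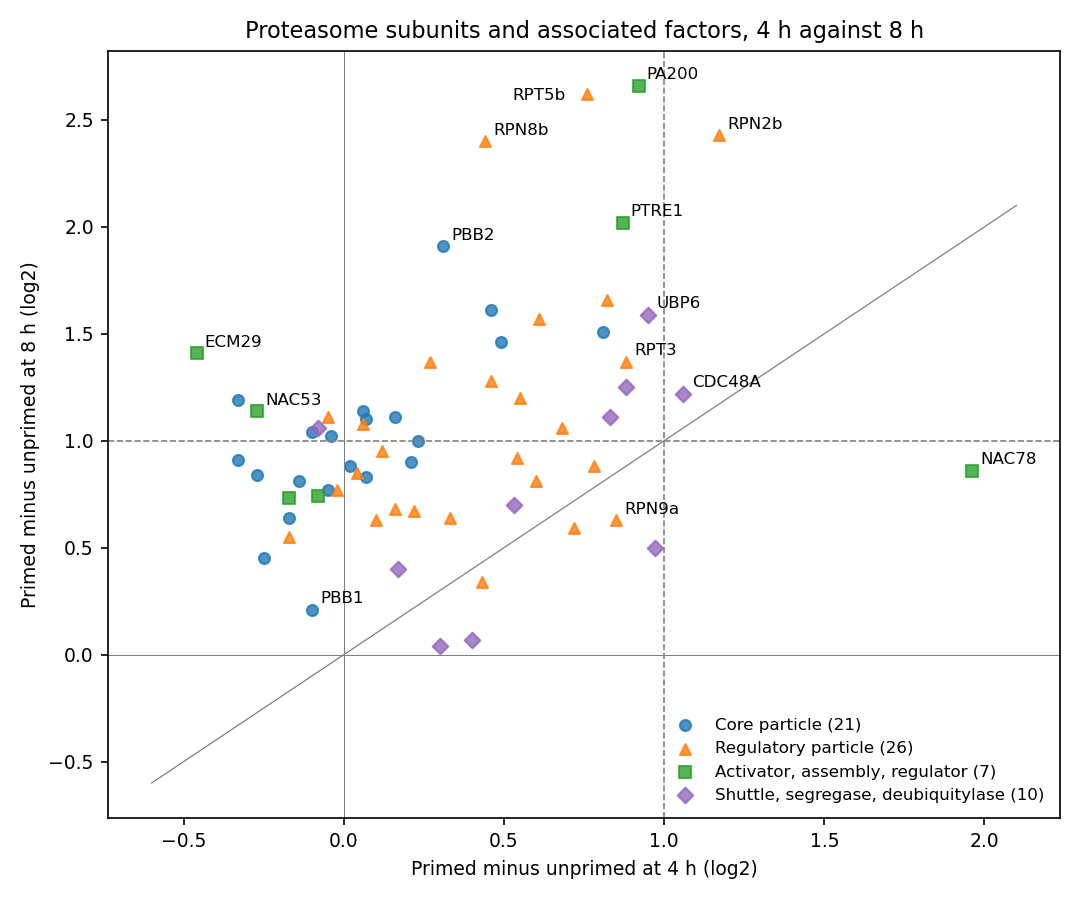
Difference between primed and unprimed seedlings (log2) at 4 h (horizontal axis) and at 8 h (vertical axis), with 1 point per probe set, for the core particle (21), the regulatory particle by gene identifier together with AT5G57950 (26), activators, assembly factors and regulators (7), and shuttle factors, a segregase and deubiquitylases (10). Dashed lines mark 2-fold and the diagonal marks equal differences; all 21 core points lie above the diagonal, whereas RPN9a and NAC78 lie below it.

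The copies of some duplicated subunits had unlike differences at 8 h, whereas those of others lay close together. For 14 subunits each copy has a probe set of its own, and in 8 of these both copies are among the 44 members. At 8 h, 1 copy alone was past 2-fold in 11 of the 14 subunits, both copies in 1 (PAE) and neither in 2 (RPT4 and RPN5). Of all probe sets, 7.33% were at least 2-fold higher at 8 h. The count of subunits depends on the limit. The copies of PAB (1.02 and 0.84) and of PAD (1.11 and 0.91) lay close together on either side of it. Pairs of other genes on the array were not examined in this way. The gap, always taken as the larger minus the smaller difference at 8 h, ranged from 0.15 to 1.94, with a median of 0.705. It was at least 1 for RPT5 (2.62 for RPT5b and 0.68 for RPT5a), RPN2 (2.43 and 0.55), RPN8 (2.40 for RPN8b and 0.67 for RPN8a), PBB (1.91 and 0.21) and RPT2 (1.66 for RPT2a and 0.59 for RPT2b).

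In each of the 14 subunits both copies were above 0 at 8 h, the lowest being PBB1 at 0.21. Over all 22746 probe sets, 8749 were above 0 at that time and 8179 below. The gap over the mean of the 4 times reached 1 for RPN2 alone (1.02). At 48 h the gap was at most 0.47 in either direction (RPN8), and at 24 h the widest was that of PAD, with -0.84 for PAD1 and 0.14 for PAD2. The gap rests on the differences within each probe set only. In wide pairs the copies also had unlike signal. RPT5b, RPN2b, RPN8b and PBB2 had unprimed 8 h values of 9.35, 8.70, 8.23 and 10.04. Their copies RPT5a, RPN2a, RPN8a and PBB1, with the smaller differences, had higher ones (12.85, 12.39, 10.37 and 13.35). RPT2 went the other way (11.26 for RPT2a and 10.08 for RPT2b). Whether the signal level of a probe set bears on the gap was not tested.

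**Figure D4:**
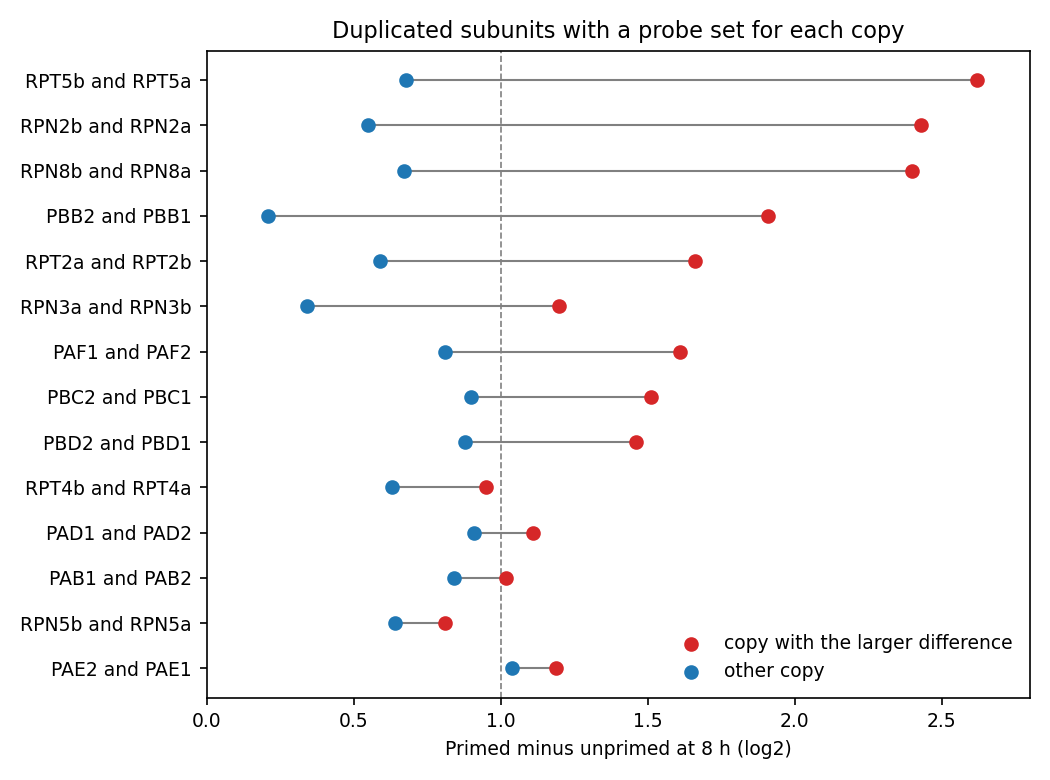
Difference between primed and unprimed seedlings at 8 h (log2, horizontal axis) for the 14 duplicated subunits with a probe set for each copy (vertical axis), the copy with the larger difference in red, the other in blue, and a dashed line at 2-fold. The red points reach from 0.81 (RPN5b) to 2.62 (RPT5b), and the blue ones from 0.21 (PBB1) to 1.04 (PAE1).

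The 10 remaining members were more mixed, with median differences of 0.155, 0.445, 0.00 and 0.00. PTRE1 (AT3G53970), annotated as related to a proteasome inhibitor and known in Arabidopsis as a regulator of the proteasome in auxin signalling, was the only member past 2-fold at 24 h against the unprimed array of that time. Its primed values were 7.47, 8.26, 6.98 and 6.49 and its unprimed values 6.60, 6.24, 5.94 and 6.10. The primed array was the higher one at all 4 times, by 0.87, 2.02, 1.04 and 0.39, and the last of these was within the 0.66 spanned by the unprimed arrays. The unprimed 24 h value was the lowest of the 8, and against the mean of the 4 unprimed arrays the difference at 24 h was 0.76, below 2-fold.

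AT3G15180, annotated only as proteasome-related, was measured at 9.06, 10.62, 8.79 and 8.86 in primed and at 8.25, 8.67, 8.57 and 8.68 in unprimed seedlings. As for most subunits, its difference was largest at 8 h, with 0.81, 1.95, 0.22 and 0.18 at the 4 times. AT2G19560, annotated as related to a proteasome protein and named EER5 in RefSeq, was measured at 7.13, 6.59, 5.96 and 5.59 against 5.93, 5.68, 5.90 and 5.90. It was highest at 4 h (1.20), with 0.91 at 8 h. UMP1a (AT1G67250) and UMP1b (AT5G38650), chaperones that assemble the core particle, gave 0.74 and 0.73 at 8 h, and UMP1a gave -0.63 at 24 h.

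The other 5 of these members stayed within 2-fold at each time. AT3G02200 and AT5G15610, annotated as a proteasome family, gave 0.16 and -0.09 at 8 h. AT2G36650, which is not a subunit, was the lowest member at 8 h (-0.81), after 0.76 at 4 h. AT4G08140 and AT1G62920, which are annotated by similarity alone, were at the floor in all 8 arrays and carry no information on priming.

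Genes that act on the proteasome from outside were taken from a list by gene identifier, and 3 of the 7 in this list (PTRE1, UMP1a and UMP1b) are members. PA200 (AT3G13330), an activator that caps the core particle in place of the regulatory one, was measured at 9.42, 10.76, 8.72 and 8.72 in primed and at 8.50, 8.10, 8.61 and 8.51 in unprimed seedlings. Its differences were 0.92, 2.66, 0.11 and 0.21. ECM29 (AT2G26780), known in yeast to hold core and regulatory particle together, gave -0.46 at 4 h and 1.41 at 8 h. Of the transcription factors that activate proteasome genes, NAC78 (AT5G04410) was measured at 12.89, 12.05, 10.87 and 10.92 against 10.93, 11.19, 11.08 and 11.02. Its difference was thus largest at 4 h (1.96), with 0.86 at 8 h, whereas NAC53 (AT3G10500) gave -0.27 at 4 h, 1.14 at 8 h and 0.88 at 24 h.

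A further list covers, with 10 probe sets, shuttle factors, a segregase and deubiquitylases, which deliver or edit ubiquitylated proteins. Of these, 5 of 10 passed the 2-fold limit upwards at 8 h, against 7.33% of all probe sets, and 1 of 10 did at 4 h, which is near the 9.36% of all probe sets. CDC48A, the segregase that pulls ubiquitylated proteins out of complexes, was higher by 1.06 at 4 h and 1.22 at 8 h. UBP6, a deubiquitylase of the regulatory particle, gave 0.95 and 1.59, its relative UBP7 -0.08 and 1.06, and the shuttle factors DSK2A/DSK2B 0.83 and 1.11. DDI1, another shuttle factor, gave 0.88, 1.25, 1.85 and 0.44, and its value at 24 h rests on an unprimed array of 6.97 against 8.39 to 8.72 in the other unprimed arrays. The median of the list was 0.68, 0.88, -0.01 and 0.035, and the 8 reference genes, by comparison, had medians of 0.065, 0.06, -0.05 and -0.015. Single reference genes ranged from -0.66 (GAPC2) to 0.77 (EXPRS) at 8 h. Member differences below 2-fold at that time, such as those of PAC1 and RPN12a (0.77), were thus not all larger than this range.

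The effect of priming was tested across arrays with limma, once as the mean over the 4 times and once as the mean of 4 and 8 h minus that of 24 and 48 h. Times are not replicates, so the error of the first fit also holds the change of the effect over time, and the fits had 3 and 2 residual degrees of freedom. The mean effect passed an adjusted p of 0.05 for 0 of the 44 members and for 0% of all 22746 probe sets. An unadjusted p under 0.05 was found for 3 of the 44 members, of which 2 were higher in primed seedlings. It was found for 2029 of all 22746 probe sets, a larger share, of which 984 were higher. For RPT5b the mean effect was 0.78 (standard error 0.61). For PTRE1, higher in 4 of 4 pairs, it was 1.08 (standard error 0.32), and the adjusted p by limma was 0.548.

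The early minus late effect passed an adjusted p of 0.05 for 0 of the 44 members and for 0% of all probe sets as well. It was positive in 21 of 21 core and 13 of 13 regulatory members. The median was 0.648 for the 44 members and 0.00 over all probe sets. The fit gave values above 0 for 60.8% of all probe sets. That share also counts flat probe sets such as AT4G08140, whose effect was 0.00, so it is too high as a background. An unadjusted p under 0.05 was found for 5 of the 44 members, all higher early. It was found for 3822 of all 22746 probe sets, a larger share, of which 2029 were higher early. The smallest adjusted p from limma among the members was 0.175, for RPN3b (0.37, standard error 0.044). Since the fit takes the effects at 4 and 8 h as 1 level, a transcript that differs at 8 h alone has a large error in it: for RPT5b the early minus late effect was 1.82 with a standard error of 0.87, and for PBB2 1.38 with one of 0.76.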

How the data were processed

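RNA of 8 pools of Col-0 seedlings, 1 per condition, was hybridised to 1-colour Affymetrix ATH1 arrays. The authors deposited log2 values on a scale that begins at 2.0. GCRMA and RMA are named, with no version or order, in the submitters' processing notes. A genome build was not given in the sources used here. Columns headed uprimed were taken as unprimed. The deposited tables held the same log2 values (0 cells differed), and the authors' own difference columns were not used. From 22810 probe sets, 64 controls were left out, as was 1 row without a probe set.

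Each unprimed array was subtracted from the primed one of its time. limma 3.58.1 in R 4.3.3 was fitted to all probe sets with the time as a block and Benjamini-Hochberg adjustment, and was tested on simulated data in 12 runs. Symbols came from lists by gene identifier, and 95 of 95 listed genes matched locus tags of RefSeq assembly TAIR10.1. Members at least 2-fold different at any time, the extremes of each subunit group by mean difference, duplicated copies far apart, listed associated genes past 2-fold and members at the floor were named, and further members were added to complete each group after their values were seen. Members and lists were chosen with earlier results of these data known. Alternatives were quantile normalization, centring on reference genes, removal of dim probe sets (mean under 4), probe sets of 1 gene, the second deposited table, a control averaged over the 4 unprimed arrays, a raised floor (2.39), members by gene identifier, limits of 1.5-fold and 4-fold, leaving out each pair of arrays, no block, and an intensity trend with robust prior. Centring aligned the arrays on their median log2 level over the reference genes, not on the differences of these genes.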

Additional observations from a re-analysis of the deposited data

How the results depend on the processing

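No difference past 2-fold changed its sign under the alternatives run, whereas values of at most 0.14 in size did in 21 cases, among them the core median at 4 h (0.02, and -0.04 after quantile normalization), PAD2 at 24 h (-0.06 against the mean of the 4 unprimed arrays) and PBC2 at 24 h (0.02 without the unprimed 24 h array). limma called 0 members in every fit (44 tested, or 42 without dim probe sets), although it called 8 of all probe sets without the block, 7 without dim probe sets and, for early minus late, 21 with an intensity trend and robust prior. Fits without 1 of the pairs of arrays (leave-one-out) called 0 members (range 0 to 0) and 0 of all probe sets, and so say nothing about stability. The core and regulatory medians at 8 h were 1.11 and 1.05 after quantile normalization and 1.15 and 1.1 after centring on reference genes, and at 4 h centring gave 0.13 and 0.38. Centring by median level raised all differences at 4 and 8 h, and moved AT4G08140 from 0.00 to 0.11 and 0.15. The reference genes had median differences of 0.065 and 0.06 at these times, so centring by their differences would not raise the members. With the deposited values, 19 members (11 core) were at least 2-fold higher at 8 h. The number was 21 (12 core) after quantile normalization and 25 (14 core) after centring. It was 17 (10 core) against the mean of the 4 unprimed arrays. The regulatory median at 4 h was 0.35 with probe sets of 1 gene, 0.34 against the mean of the 4 unprimed arrays and 0.46 with members by gene identifier. Against the mean of the 4 unprimed arrays, 1 member was lower at 8 h, 0 were higher at 24 h and the core median at 48 h was -0.13. By gene identifier, 1 member was higher at 4 h, 11 regulatory ones at 8 h and 0 members at 24 h. Against the mean of the unprimed arrays other than that of 24 h, an alternative chosen after seeing the data, the regulatory medians were 0.36 at 4 h and 0.89 at 8 h, and 0 members were higher at 24 h. With a 1.5-fold limit, 9 members were higher at 4 h (1 core, 4 regulatory), 35 at 8 h (19 core, 11 regulatory; 1 member lower) and 2 at 24 h (3 lower). With a 4-fold limit, 0 members were higher at 4 h (0 regulatory), 3 at 8 h (0 core, 2 regulatory) and 0 at 24 h. The cause of these shifts was not tested, except that the limits count fewer or more probe sets by construction. No array had a replicate, and the floor of the scale limits only AT4G08140 and AT1G62920 among the members. No paired analysis with a replicate block was possible because the labels give 1 array per condition.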
